A study of Mus musculus with 8 samples.

Results

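The genes described here encode subunits of the mitochondrial respiratory chain and its ATP synthase. They are 32 nuclear genes, 11 of complex I, 4 of complex II, 5 of complex III, 8 of complex IV and 4 of the ATP synthase, named as a list and found on the arrays by their gene names. All 32 were present among the 14874 genes tested, and each was well above the local background on all 8 arrays, so none entered through 1 group alone. RNA came from livers of bl6 mice, aged 12 weeks and fed chow, and was isolated on day 6 after transduction. The 4 control livers received the vector labelled pblockITcontrol and the 4 shRaly livers the vector labelled pblockITshRaly, an adenovirus with a short hairpin RNA against Raly, an RNA-binding protein of the hnRNP family. Both groups carried a vector, and the labels give the same dose for both (2e+09, with no unit). The labels do not say that each sample came from an animal of its own, and p-values here cover only the variation among these 8 samples, which may be technical.

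The respiratory chain sits in the inner mitochondrial membrane. Complexes I and II pass electrons from NADH and succinate to ubiquinone, complex III passes them to cytochrome c, and complex IV passes them to oxygen; complexes I, III and IV pump protons, and the ATP synthase uses the gradient to make ATP. Most subunits are encoded in the nucleus and imported, while a small set of core subunits is transcribed from mitochondrial DNA, so complexes I, III, IV and the ATP synthase are assembled from the products of both genomes. Hepatocytes are rich in mitochondria, and the liver draws on this ATP for glucose and urea synthesis.

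Levels are given below as a percentage of the geometric mean of the 4 control arrays for that gene, after each array was scaled to its 75th percentile; differences are on the log2 scale, shRaly minus control. Raly itself stood at 100.4%, 84.3%, 105% and 112% on the control arrays and 51.8%, 80.9%, 58.3% and 62.7% on the shRaly arrays. The groups did not overlap, and the shRaly mean was 62.6% of control (log2 difference -0.68, SE 0.15, limma adjusted p = 0.0749), above the threshold of 0.05. A single slide and scan held the 8 arrays, controls in row 1 and shRaly in row 2, and thus row and group cannot be told apart. Between 45.9% and 51.1% of probes per array were well above background, and no spot was saturated. All 10 hepatocyte markers tested were detected, with a summed level of 96.9% to 104% of the control mean on the control arrays and 82.3% to 102% on the shRaly arrays; the 6 endothelial markers summed to 93.2% to 105% and 76.7% to 92.9%. In a bulk sample, fewer cells of a type and less RNA per cell cannot be told apart.

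None of the 32 subunit genes passed the test in either direction in the shRaly livers. With limma and Benjamini-Hochberg adjustment over all genes tested, 0 were higher and 0 lower at an adjusted p under 0.05, where 1.22% of all genes passed, and 1 of the 32 had an unadjusted p under 0.05, where 16.1% of all genes did. The differences ran from -0.12 for Cox7a2 to 0.22 for Cox5a, with 17 genes above 0 and 15 below. Their median was 0.02, beside -0.02 over all genes tested. The 95% interval of every one of the 32 lay inside a 1.5-fold change in either direction, which held for 68.0% of all genes. The lowest bound was 77.9% of control, for Cox6c, and the highest 139.5%, for Cyc1. Replicates were close: the median residual SD was 0.10 for the 32 genes and 0.19 over all genes tested. The groups of arrays did not overlap for 3 genes, 9.38% of the 32, against 10.4% of all genes.

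**Figure D1:**
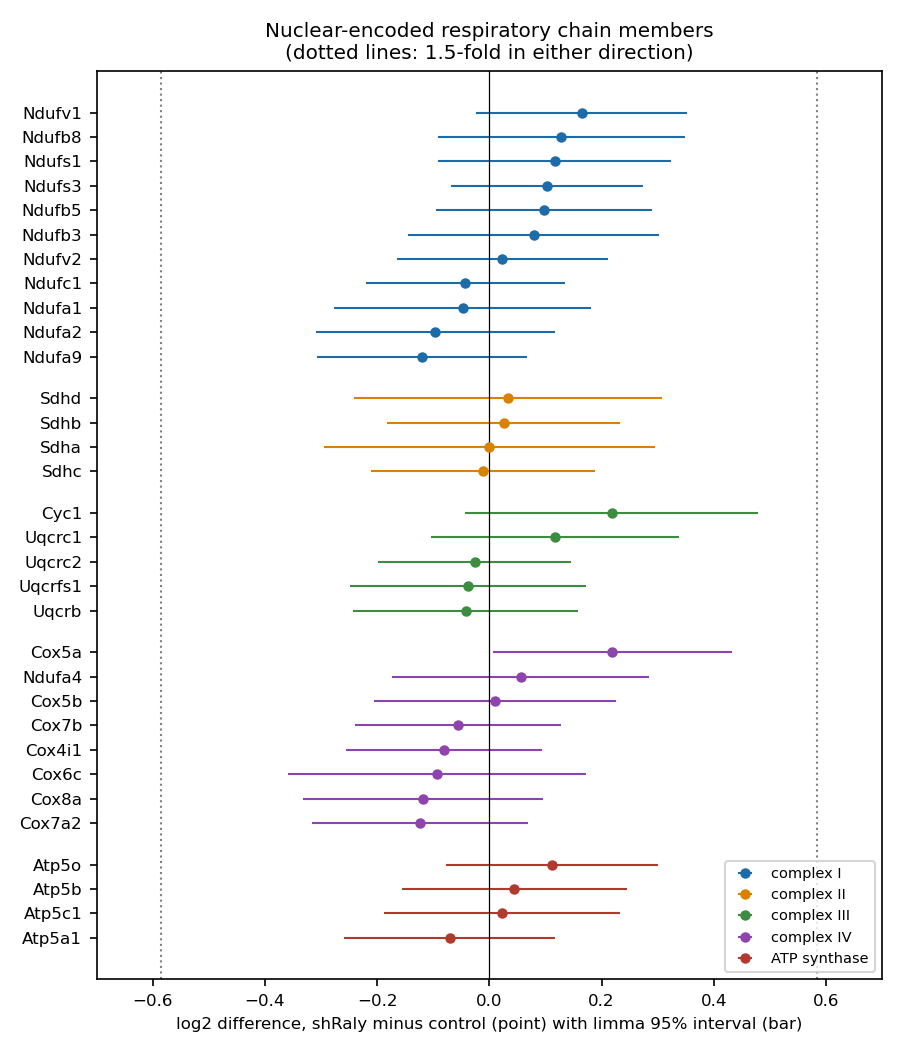
Log2 difference (shRaly minus control, 4 arrays each) of the 32 nuclear subunit genes by complex, as points with limma's 95% interval; dotted lines mark a 1.5-fold change. All intervals lie between the dotted lines, and that of Cox5a is the one that does not cross 0.

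Complex I is the largest complex, and its 11 genes had a median difference of 0.08, with 7 above 0 and 4 below. The largest difference was that of Ndufv1, which carries the NADH-binding flavin site. It stood at 103%, 100.3%, 92.1% and 105% on the control arrays and 111%, 106%, 115% and 117% on the shRaly arrays. The lowest shRaly array was above the highest control array, but the difference did not pass the test (log2 difference 0.17, SE 0.08, limma adjusted p = 0.374; 95% interval 98.4% to 128% of control). Ndufs3, a core subunit of the arm that faces the matrix, stood at 102%, 98.3%, 96.3% and 104% on the control arrays and 106%, 108%, 104% and 111% on the shRaly arrays. Here too the groups were apart, by a narrow gap between shRaly 3 and control 4 (log2 difference 0.10, SE 0.08, limma adjusted p = 0.542). Ndufs1, the large iron-sulfur subunit of the same arm, differed by 0.12 and Ndufv2, a partner of Ndufv1, by 0.02, both with overlapping groups.

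The other complex I genes encode accessory subunits around the core. Ndufb8, of the membrane arm, stood at 102%, 95.2%, 93.5% and 109.7% on the control arrays and 102%, 109%, 124% and 104% on the shRaly arrays. The shRaly 3 array was the highest of the 8, and the groups overlapped (log2 difference 0.13, SE 0.10, limma adjusted p = 0.553). Ndufb3 and Ndufb5, also of the membrane arm, differed by 0.08 and 0.10. Lower means were found for Ndufa9 (-0.12), Ndufa2 (-0.10), Ndufa1 (-0.05) and Ndufc1 (-0.04), with adjusted p between 0.514 and 0.862 by limma. Ndufa9, an accessory subunit at the junction of both arms, stood at 107%, 101%, 91.7% and 102% on the control arrays and 89.8%, 96.3%, 92.6% and 89.6% on the shRaly arrays, so its groups overlapped through the control 3 array. A second probe for Ndufb5, further along the gene at chr3:32650236-32650295 (mm9), was dimmer and less even: it read 65.2% of control on shRaly 1 and 143% on shRaly 3, with a log2 difference of 0.09 (SE 0.23) beside 0.10 for the probe used.

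Complex II, succinate dehydrogenase, is the one complex with no mitochondrially encoded subunit, and it is also an enzyme of the tricarboxylic acid cycle. Its 4 genes had a median difference of 0.01 and a range of -0.01 to 0.03. Sdha, the flavoprotein that holds the succinate site, stood at 100.4%, 98.1%, 96.7% and 105% on the control arrays and 77.2%, 109%, 117% and 102% on the shRaly arrays. The shRaly 1 array was the lowest and shRaly 3 the highest of the 8, and the means of both groups were the same to 2 decimals (log2 difference 0.00, SE 0.13, limma adjusted p = 1). Its residual SD, 0.19, was the widest of the 32 genes. Sdhd, a membrane anchor, stood at 97.9%, 94.1%, 91.6% and 118% on the control arrays and 88.04%, 111%, 115% and 98.3% on the shRaly arrays. It too was low on shRaly 1 and had control 4 as its highest array, with overlapping groups (log2 difference 0.03, SE 0.12, limma adjusted p = 0.923). The iron-sulfur subunit Sdhb (0.03) and the other anchor Sdhc (-0.01) each had a second probe whose difference had the opposite sign, -0.02 for Sdhb and 0.13 for Sdhc, and neither probe of either gene passed the test.

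Complex III, the cytochrome bc1 complex, had a median difference of -0.03 over 5 genes. Cyc1, cytochrome c1, stood at 106%, 93.4%, 92.7% and 109% on the control arrays and 97.5%, 115%, 128% and 129% on the shRaly arrays. The arrays shRaly 2, 3 and 4 were above all control arrays and shRaly 1 was within their range. The mean was 116% of control, with a 95% interval of 97.1% to 139.5%, and did not pass the test (log2 difference 0.22, SE 0.12, limma adjusted p = 0.397). Uqcrc1, a core protein, stood at 109%, 101%, 87.0% and 105% on the control arrays and 101%, 107%, 111% and 115% on the shRaly arrays, with control 3 the lowest array and overlapping groups (log2 difference 0.12, SE 0.10, limma adjusted p = 0.592). The other core protein Uqcrc2 (-0.03), the Rieske iron-sulfur protein Uqcrfs1 (-0.04) and the small subunit Uqcrb (-0.04) had shRaly means of 98.2%, 97.4% and 97.1% of control, and the 3 probes of Uqcrb were all slightly lower (-0.09 to -0.04).

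Complex IV, cytochrome c oxidase, held both extremes of the 32 genes, and its median difference was -0.07, with 3 genes above 0 and 5 below. Cox5a, a matrix-side subunit probed across an exon junction at chr9:57379593-57380141 (mm9), stood at 98.7%, 99.4%, 93.6% and 109% on the control arrays and 103%, 120%, 124% and 119.8% on the shRaly arrays. As with Cyc1, shRaly 2, 3 and 4 were above all controls and shRaly 1 was not, and Cox5a was the 1 gene of the 32 with an unadjusted p under 0.05 (0.0441; log2 difference 0.22, SE 0.09, limma adjusted p = 0.295). Its partner on the matrix side, Cox5b, stood at 93.2%, 101%, 98.7% and 108% on the control arrays and 114%, 99.4%, 96.98% and 93.1% on the shRaly arrays, a difference of 0.01. At the other end, Cox7a2, a small membrane subunit, stood at 91.6%, 104%, 101% and 105% on the control arrays and 85.9%, 97.3%, 93.5% and 90.9% on the shRaly arrays. The shRaly 1 array was the lowest and the groups overlapped (log2 difference -0.12, SE 0.09, limma adjusted p = 0.515).

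The remaining complex IV genes were mostly lower by small amounts. Cox4i1, the ubiquitous form of a subunit that binds ATP, stood at 102%, 95.97%, 95.9% and 107% on the control arrays and 95.6%, 94.2%, 93.5% and 95.04% on the shRaly arrays. Its highest shRaly array lay just under its lowest control array, so that the groups were narrowly apart (log2 difference -0.08, SE 0.08, limma adjusted p = 0.65). Cox8a, a small membrane subunit, stood at 94.6%, 100.2%, 94.2% and 112% on the control arrays and 84.8%, 100.3%, 92.4% and 91.6% on the shRaly arrays, with overlapping groups (log2 difference -0.12, SE 0.09, limma adjusted p = 0.574), and its second probe gave -0.09. Cox6c, another small subunit, had its lowest value on shRaly 4, at 77.9% of control, while shRaly 1 was at 109% (-0.09). Cox7b differed by -0.06 and Ndufa4, first assigned to complex I and later found in complex IV, by 0.06.

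The ATP synthase genes encode the catalytic head (Atp5a1, Atp5b), the central stalk (Atp5c1) and the peripheral stalk (Atp5o), and had a median difference of 0.03. Atp5b, the catalytic beta subunit, stood at 96.6%, 98.6%, 95.8% and 109.6% on the control arrays and 93.9%, 109.5%, 104% and 106% on the shRaly arrays, with the control 4 array the highest and a difference of 0.04. Atp5o stood at 96.9%, 96.5%, 98.4% and 109% on the control arrays and 102%, 105%, 112% and 113% on the shRaly arrays. All shRaly arrays were above controls 1, 2 and 3, and control 4 fell among them (log2 difference 0.11, SE 0.08, limma adjusted p = 0.548). Atp5a1, the alpha subunit, was lower on average (-0.07), and Atp5c1, the gamma subunit, differed by 0.02, with 0.14 at its second probe.

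The level of the 32 genes as a whole also differed between arrays of 1 group. The median over the 32 genes was highest on control 4 (0.09) and lowest on control 3 (-0.06), and the shRaly arrays lay between, from -0.05 to 0.06. This order depended on the scaling: shRaly 1 was the highest array with quantile normalization (0.12, against at most 0.01 in the controls) and the lowest with median scaling (-0.16, against -0.10 or more). With quantile normalization shRaly 2 (0.04) and shRaly 3 (0.10) were also above all controls, and shRaly 4 (-0.01) was not. Over the 496 pairs of genes, the median correlation of their deviations from the group means across the 8 arrays was 0.346, and 76.8% of pairs were positive; pairs within a complex (0.348) and between complexes (0.345) were alike. These points share arrays and scaling, and the correlation is a description only.

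**Figure D2:**
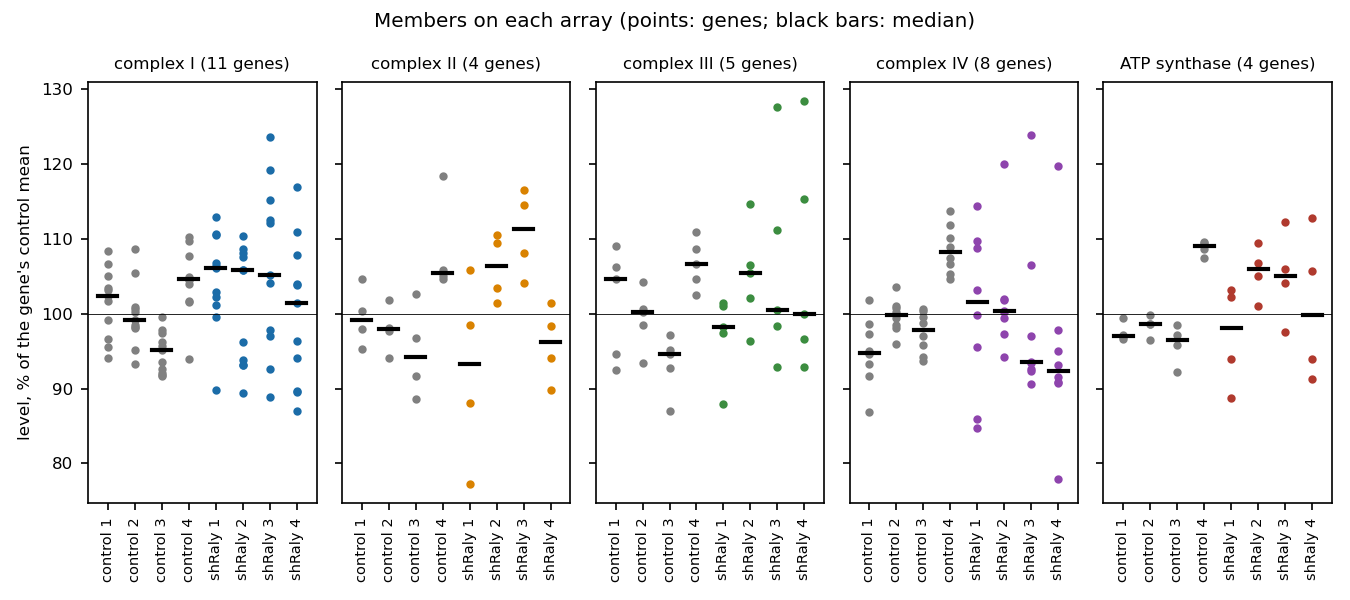
Level of each of the 32 genes on each of the 8 arrays, as a percentage of the gene's control mean, with the median of each complex as a black bar. Values run from 77.2% (Sdha on shRaly 1) to 129% (Cyc1 on shRaly 4), and the points of both groups overlap in every complex.

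The other nuclear subunits of complexes I, III, IV and the ATP synthase, 46 genes when the inhibitor protein Atpif1 is counted with them, had values of the same kind. None passed the test with limma, and 2 had an unadjusted p under 0.05, where 16.1% of all genes did. Their median difference was 0.01. The 95% interval was inside a 1.5-fold change for 44, which held for 68.0% of all genes. The intervals of Ndufs7 and Atpif1 reached beyond a 1.5-fold change. Ndufs7, the complex I subunit that carries the last iron-sulfur cluster before ubiquinone, stood at 106%, 101%, 92.5% and 101% on the control arrays and 146%, 119%, 134% and 144% on the shRaly arrays. The groups were well apart and the mean was 135% of control, yet the adjusted p was above the threshold (log2 difference 0.44, SE 0.10, limma adjusted p = 0.0735), and it fell below it only without shRaly 2 among the arrays left out in turn (0.50, adjusted p = 0.048). Atpif1, the inhibitor protein of the ATP synthase, stood at 101%, 104%, 86.2% and 110.4% on the control arrays and 141%, 103%, 141% and 150.4% on the shRaly arrays, with shRaly 2 within the control range (log2 difference 0.41, SE 0.14, limma adjusted p = 0.2). The 5 measured isoforms of complex IV known mainly from muscle and other tissues were noisier, and none passed the limma test (2 had an unadjusted p under 0.05): Cox6a2, a heart and muscle isoform, differed by 0.52 (limma adjusted p = 0.231) and Cox8b, also of heart and muscle, by -0.44 (limma adjusted p = 0.294). Of 5 skeletal muscle markers 1, Acta1, passed the filter. It stood at 259.8%, 240.3%, 45.4% and 35.3% on the control arrays and 296%, 69.7%, 768% and 39.9% on the shRaly arrays, and its part in these isoforms' values was not tested.

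The 13 subunits transcribed from mitochondrial DNA had mostly lower means in the shRaly livers. None passed the limma test, but 11 of 13 were below 0. The median difference was -0.24 beside 0.02 for the nuclear genes and -0.02 over all genes. An unadjusted p under 0.05 was found for 6 (all lower), where 16.1% of all genes had one in either direction. For 5 (38.5%, all lower, against 10.4% of all genes) the groups of arrays did not overlap. The 60-base probes of the 6 genes with an unadjusted p under 0.05 are shown because they gave the smallest p of the 13, in lower case as synthesized, 5′ to 3′, with none of their bases singled out.
ND3: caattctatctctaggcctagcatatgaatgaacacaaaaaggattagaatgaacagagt
ATP8: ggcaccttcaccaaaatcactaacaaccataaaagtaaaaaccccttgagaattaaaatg
CYTB: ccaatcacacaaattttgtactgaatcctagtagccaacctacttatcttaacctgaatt
ND4: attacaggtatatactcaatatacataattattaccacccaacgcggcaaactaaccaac
ND4L: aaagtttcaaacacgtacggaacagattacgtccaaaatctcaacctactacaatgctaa
ATP6: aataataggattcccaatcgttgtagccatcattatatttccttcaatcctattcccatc
The files place the probes of CYTB (chrM:15099-15158) and ND4 (chrM:11370-11429) in the mitochondrial genome, and those of ND3 (chr1:24619613-24619672), ATP8 (chr1:24621488-24621547), ND4L (chr1:24619243-24619302) and ATP6 (chr1:24621393-24621452) on chromosome 1, all in mm9. Mouse chromosome 1 is known to hold a nuclear copy of part of the mitochondrial genome, and these coordinates do not tell a transcript of the one from a transcript of the other. Of the 6 probes placed on chromosome 1, 5 were below 0 (median -0.25), and of the 7 placed in the mitochondrial genome, 6 were (median -0.19). An unadjusted limma p under 0.05 was found for 4 of the 6 on chromosome 1 and 2 of the 7 in the mitochondrial genome. Which transcripts the probes on chromosome 1 read was not tested.

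ND3, a small membrane subunit of complex I, stood at 97.3%, 104%, 95.3% and 104% on the control arrays and 77.1%, 78.8%, 71.4% and 74.5% on the shRaly arrays. The groups were widely apart, the mean was 75.4% of control with a 95% interval of 66.5% to 85.4%, and the adjusted p lay just above the threshold (log2 difference -0.41, SE 0.08, limma adjusted p = 0.0506); with normexp background correction it passed (-0.50, SE 0.09, limma adjusted p = 0.018). ATP8, a small membrane subunit of the ATP synthase, stood at 114%, 97.5%, 86.2% and 104% on the control arrays and 75.2%, 86.02%, 77.03% and 73.1% on the shRaly arrays. The highest shRaly array was just below the lowest control array (log2 difference -0.36, SE 0.11, limma adjusted p = 0.153). CYTB, the cytochrome b of complex III, stood at 99.2%, 97.4%, 96.3% and 108% on the control arrays and 82.8%, 93.03%, 74.6% and 85.2% on the shRaly arrays, again with all shRaly arrays below all controls (log2 difference -0.26, SE 0.09, limma adjusted p = 0.227).

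ND4, a proton-pumping subunit of complex I, stood at 92.2%, 97.2%, 102% and 109% on the control arrays and 76.9%, 88.6%, 77.6% and 92.8% on the shRaly arrays, with shRaly 4 inside the control range (log2 difference -0.26, SE 0.10, limma adjusted p = 0.256). ND5, another pumping subunit, stood at 139%, 88.4%, 95.8% and 84.7% on the control arrays and 83.2%, 80.3%, 75.03% and 77.4% on the shRaly arrays. Its groups did not overlap, but the control 1 array was far above the other controls (log2 difference -0.34, SE 0.15, limma adjusted p = 0.321). ND4L differed by -0.24, with groups narrowly apart, and ATP6, the proton channel subunit of the ATP synthase, by -0.26, with overlapping groups.

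COX1, COX2 and COX3 form the catalytic core of complex IV. COX1, which holds the oxygen-reducing site, stood at 96.8%, 100.3%, 94.1% and 109% on the control arrays and 89.99%, 97.3%, 81.1% and 83.1% on the shRaly arrays (log2 difference -0.19, SE 0.09, limma adjusted p = 0.366). COX2, which takes electrons from cytochrome c, differed by -0.09 and COX3 by 0.03. The complex I subunits ND1 (-0.17) and ND2 (-0.12) had overlapping groups, and ND6, the 1 subunit encoded on the other strand of mitochondrial DNA, was at 0.09 with an SE of 0.21. Ordered by their differences, the 13 run from ND3 to ND6, and neighbours in that order, other than COX2 and COX3, differed by less than the standard error of either.

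**Figure D3:**
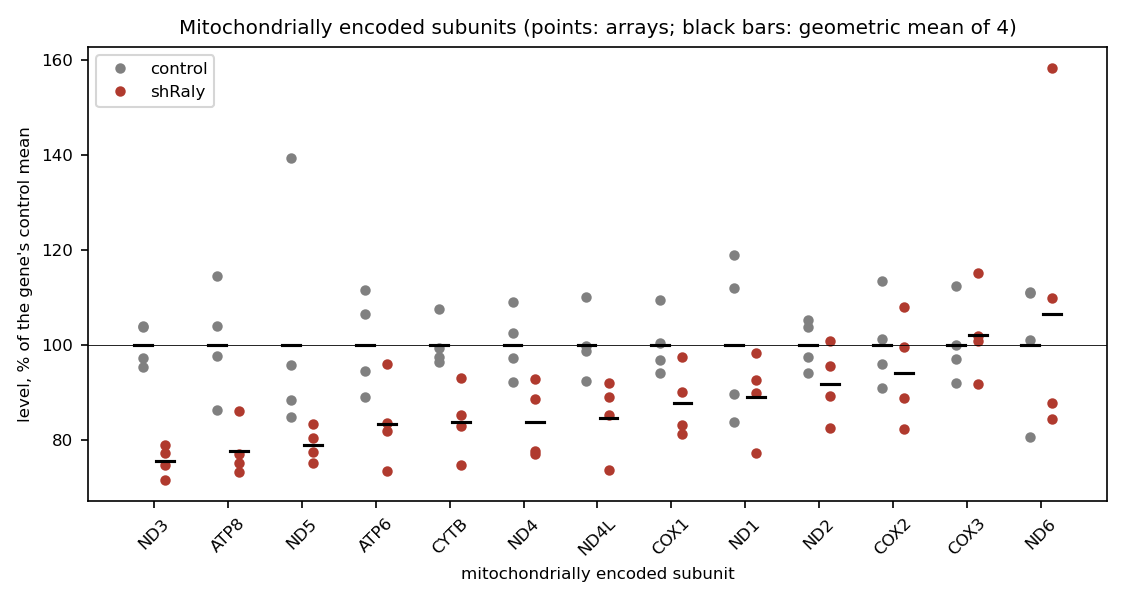
Level of the 13 mitochondrially encoded subunits on each array, as a percentage of the gene's control mean; grey points are the 4 control arrays, red points the 4 shRaly arrays, and bars their geometric means. ND3, ATP8, ND5, CYTB and ND4L have no overlap between the groups, while COX3 and ND6 have shRaly means above 100%.

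Taking the difference within each array removes its scaling. The median of the 13 mitochondrially encoded subunits minus the median of the 32 nuclear genes was -0.28 on shRaly 1, -0.14 on shRaly 2, -0.36 on shRaly 3 and -0.18 on shRaly 4. On the 4 control arrays it was between -0.02 and 0.00. Their mean, but not their spread, lies near 0 by construction, since each gene was set against its control mean. The mean was -0.24 ± 0.10 (SD, n = 4) in the shRaly livers and -0.01 ± 0.01 (SD, n = 4) in the controls, a difference of -0.23, and -0.24 after quantile normalization. All 4 shRaly arrays were lower than all 4 controls; no test was made of this difference of medians. Levels of cell type markers were also compared. Summed endothelial markers were lower on all 4 shRaly arrays than on every control array, and summed hepatocyte markers on some, as given above. Single markers were not all lower: 2 of 6 endothelial and 4 of 10 hepatocyte markers were above 0. The median over the endothelial markers overlapped between groups, from -0.25 to 0.08 on the control arrays and -0.33 to 0.02 on the shRaly arrays. All 6 stellate cell markers were below 0, with a median of -0.26 and a summed level of 83.6% to 142% of the control mean on the control arrays and 72.3% to 89.2% on the shRaly arrays. Their median per array was highest on control 3, at 0.43, which raises the control mean. It ran from -0.25 to 0.43 on the control arrays and from -0.34 to -0.09 on the shRaly arrays, so the groups overlapped. The medians were -0.17 for endothelial, -0.09 for hepatocyte, -0.18 for T, NK and B cell and 0.27 for neutrophil markers. For each of these lists the medians per array overlapped between the groups. No gene of these lists passed the limma test. An unadjusted p under 0.05, found for 16.1% of all genes, was held by 4 of 10 hepatocyte (1 higher and 3 lower) and 2 of 6 endothelial markers. It was also held by 1 of 6 stellate, 2 of 7 T, NK and B cell and 0 of 4 neutrophil markers. The part of these lists in the difference of medians between mitochondrially encoded and nuclear genes was not tested.

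**Figure D4:**
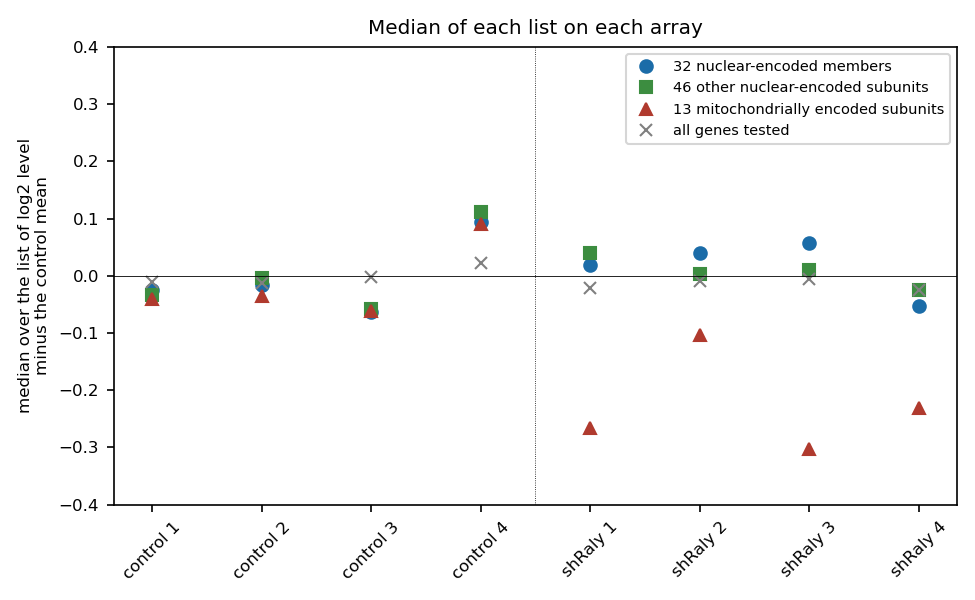
Median log2 level minus the control mean on each array for the 32 nuclear genes, 46 other nuclear subunits (Atpif1 counted with them), 13 mitochondrially encoded subunits and all genes tested. On the control arrays the subunit lists lie close to each other; on the 4 shRaly arrays the mitochondrially encoded subunits lie at -0.27, -0.10, -0.30 and -0.23 and both nuclear lists near 0.

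The lists around the chain held 158 other genes, of which 1 (0.633%) passed the limma test, a smaller share than the 1.22% of all genes. It came from the 13 regulators, which had a median of 0.07. Of these, 4 had an unadjusted p under 0.05 (1 higher and 3 lower), where 16.1% of all genes did. The groups were apart for 5 (38.5%), against 10.4% of all genes. Ppara, a lipid-sensing receptor that switches on genes of fatty acid use, stood at 96.2%, 109.8%, 101% and 93.5% on the control arrays and 74.8%, 73.6%, 56.8% and 62.8% on the shRaly arrays. It fell to 66.6% of control (log2 difference -0.59, SE 0.11, limma adjusted p = 0.0498). The call held without shRaly 2 and was lost without any other array (limma adjusted p from 0.0483 to 0.157). Of 8 other settings it held in 4: normexp correction, median scaling, the deposited signal and the probe of highest unlogged signal. The deposited signal and that choice of probe gave the same difference and SE as the main setting. Esrra, the estrogen-related receptor that binds promoters of respiratory chain genes, stood at 105%, 94.8%, 84.1% and 119% on the control arrays and 159.6%, 123%, 119.6% and 144% on the shRaly arrays, apart from the controls but not past the threshold (log2 difference 0.44, SE 0.14, limma adjusted p = 0.172). The 4 proteins that transcribe and package mitochondrial DNA were looked at after the values above were seen: Tfam, which packages it, differed by 0.10, the RNA polymerase Polrmt by 0.09, the transcription factor Tfb2m by -0.28 (limma adjusted p = 0.228) and its relative Tfb1m, an rRNA methyltransferase, by -0.25 (limma adjusted p = 0.396). Of these, Tfb1m and Tfb2m had all shRaly arrays below all controls, as 10.4% of all genes had in one direction or the other, and none of the 4 passed the test. Gabpb1, a subunit of the GABP factor and also named after its values were seen, had a smaller p than either and groups apart (log2 difference -0.29, SE 0.09, limma adjusted p = 0.188).

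In the lists for assembly and supply no gene passed the limma test, and medians were near 0. Complex I assembly factors had a median of -0.04 over 14 genes (0 with an unadjusted p under 0.05), with Ecsit at 0.17 and Ndufaf6 at 0.24. The 27 other assembly factors had a median of -0.01, and 7 had an unadjusted p under 0.05, where 16.1% of all genes did. Coa5, a complex IV assembly factor, stood at 96.5%, 90.9%, 91.8% and 124% on the control arrays and 120%, 134%, 129% and 143% on the shRaly arrays (log2 difference 0.39, SE 0.12, limma adjusted p = 0.162), and Ttc19, a complex III factor, was lower on all shRaly arrays (log2 difference -0.33, SE 0.11, limma adjusted p = 0.195). Of 15 genes of the mobile carriers and of ubiquinone synthesis (median -0.02, 2 with an unadjusted p under 0.05), Pdss1, which makes the ubiquinone side chain, differed by 0.44 (limma adjusted p = 0.192) and Coq8a by -0.35 (limma adjusted p = 0.255).

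The tricarboxylic acid cycle, which supplies NADH and succinate to complexes I and II, had a median of 0.08 over 13 enzymes. Of these, 3 had an unadjusted p under 0.05, where 16.1% of all genes did, and none passed the threshold. The groups were apart for 4 (30.8%, all higher), against 10.4% of all genes in either direction. Idh3a, a subunit of the NAD-dependent isocitrate dehydrogenase, stood at 103%, 89.2%, 92.5% and 117% on the control arrays and 128%, 129%, 149% and 176% on the shRaly arrays. The groups did not overlap (log2 difference 0.53, SE 0.13, limma adjusted p = 0.105). Ogdh, of the oxoglutarate dehydrogenase complex, was at 122% of control, also with groups apart (log2 difference 0.29, SE 0.10, limma adjusted p = 0.211). The 12 markers of mitochondrial membranes and matrix, read as a gauge of mitochondrial transcripts outside the chain, had a median of 0.01 and none with an unadjusted p under 0.05. Vdac2, a pore of the outer membrane, differed by 0.16. Slc25a4, an ADP/ATP carrier, also differed by 0.16, while Slc25a5, a carrier of the same kind with a brighter probe, differed by 0.02.

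**Figure D5:**
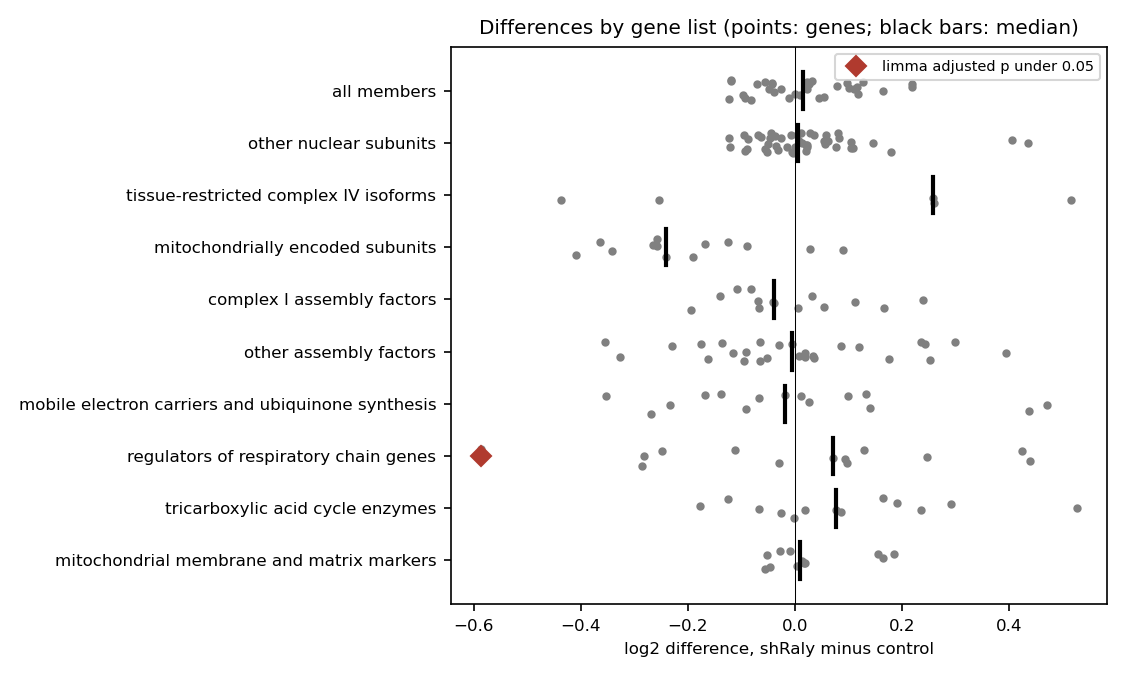
Log2 difference (shRaly minus control) of each gene in the respiratory chain lists, with the list's median as a black bar and the 1 gene past the limma threshold, Ppara, as a red diamond. The nuclear subunits crowd around 0, and the mitochondrially encoded subunits lie mostly to the left, at a median of -0.24.

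RefSeq promoters (GRCm38.p6; 250 bases before to 50 after a start) were matched by symbol for 23 of the 32 genes and searched on both strands for short motifs of factors known at respiratory chain genes. The NRF1 core CGCNTGCG was found in 5 of 23 (21.7%; Atp5c1, Atp5o, Sdha, Sdhd and Uqcrc1), against 9.22% of all 27025 genes with a promoter there. The ETS core CCGGAAG, read by the GABP factor, was found in 4 (17.4%; Cox8a, Ndufs3, Sdhb and Sdhd), against 9.93%. The TATA box TATAAA was found in 0, against 15.7%, the CCAAT box CCAAT in 7 (30.4%), against 41.1%, and the estrogen-related receptor core AAGGTCA in 1, Sdhd (4.35%), against 5.38%. A stretch upstream of Sdhd, chr9:50603869-50603947 (GRCm38.p6, minus strand), is shown because Sdhd is the 1 gene with NRF1, ETS and estrogen-related receptor matches; capitals mark, in order, the NRF1 core and the ETS core, each as its reverse complement, and the AAGGTCA match lies outside the stretch.
Sdhd: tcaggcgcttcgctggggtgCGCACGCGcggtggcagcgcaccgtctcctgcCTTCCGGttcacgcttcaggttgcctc
A match here is a string of letters and not a shown binding site.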

How the data were processed

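Liver RNA of 4 control and 4 shRaly samples was labelled with Cy3 and hybridised to single-colour Agilent arrays, 1 per sample; groups and replicate numbers came from the sample titles. The deposited intensity values are those of Agilent Feature Extraction 11.5.1.1, per the file headers: a processed signal that is background-subtracted and detrended, with surrogates for dim spots, and not scaled between arrays. The deposited table of the whole series held the same signal for 62976 of 62976 spots on every array, within a relative tolerance of 1e-06. From these files, log2 signal minus each array's 75th percentile was computed, spots with outlier flags were left out, and spots of a probe were averaged. Genes entered the test through probes that were well above background on 4 or more arrays and had 3 values per group, with the probe of highest mean used; 26 of the 32 genes had 1 probe among 39. Groups were compared with limma 3.58.1 (R 4.3.3; lmFit and eBayes, two-sided, no block), with Benjamini-Hochberg adjustment over 14874 genes and a threshold of 0.05. Names came from RefSeq, for 27656 of 55681 probes by accession and 3401 by current symbol; coordinates are the files' own, in mm9. The script was checked on simulated data. The number of arrays limits the precision.

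The 32 genes and the other gene lists were chosen with earlier results of these data known. Named are all 32 genes, Raly, the mitochondrially encoded subunits, and of the other lists any gene past the threshold. The 2 genes of smallest p are named for the isoform, assembly factor, carrier, regulator, cycle enzyme and mitochondrial marker lists. They are not named for every list. Further genes are also named, some of them after their values were seen. No gene of the Kupffer cell, cholangiocyte or red blood cell marker lists passed the threshold or had an unadjusted p under 0.05. Alternatives were normexp background correction (offset 50), quantile and median scaling, no filter on dim probes, other choices of probe, the replicate number as a block, the deposited table, and leaving out each array. Same-numbered samples of both groups had correlations of 0.08, -0.02, -0.07 and 0.14 between their deviations, so the numbers were not taken to pair them.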

Additional observations from a re-analysis of the deposited data

Results flagged for a closer look

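The control 4 array stood far from the other 3 control arrays for 2 genes of the ATP synthase. For Atp5a1 it was at 107% of the control mean, with the nearest other control at 98.6%, and for Atp5o at 109%, with the nearest at 98.4%. In each case the gap to the nearest array took up more of the range of the 4 controls (0.85 and 0.83) than Dixon's 95% critical value allows. These are 2 of 106 groups of 4 arrays examined, fewer than the 1 in 20 that chance flags. Without it, neither gene passed the limma test.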

How the results depend on the processing

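The count of 0 among the 32 nuclear subunit genes and the count of 32 intervals inside a 1.5-fold change were the same under all 16 alternatives run. The median difference of the 32 genes, 0.02, was -0.047 with normexp background correction and -0.01 with median scaling, 0.05 with quantile normalization, and -0.01 to 0.04 when each array was left out, so its sign depends on the setting. With the replicate block it was 0.02, with 0 genes called. The mitochondrially encoded subunits kept a negative median under every alternative run (-0.27 to -0.20), with 0 past the threshold except with normexp correction (1, ND3). Over the lists around the chain the count of 1 became 2 with normexp correction, 0 with quantile normalization, 0 without the filter on dim probes, 0 with the mean of all probes, 0 with the replicate block, and 0 to 2 when each array was left out; the cause was not tested. Over all genes the count of 182 ran from 6 (without control 3) to 281 (without shRaly 2), and was 46 with the replicate block and 42 without the filter. The number of arrays and the single slide limit these values, and dim probes such as those of ND6, Cox6a2 and Cox8b carry wide errors.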
